A study of Mus musculus with 3 samples.

Results

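The mesenchymal cells of the embryonic thymus were compared between 2 mutant genotypes, Tbx1neo2/neo2 and Foxn11089/1089, across all genes. A cell was taken as mesenchymal when it had at least 1 unique molecular identifier (UMI, which marks 1 captured RNA molecule) of Pdgfra and at least 1 of Prrx1, Tcf21 or Postn, and 0 of the epithelial gene Epcam, the hematopoietic gene Ptprc and the endothelial gene Cdh5. It also had to hold at least 200 genes and 2000 UMIs, with under 20% of its UMIs on mitochondrial and under 5% on hemoglobin genes. The cells were thus selected on measured values, and the genes of this gate are given as a description and support nothing. The gate found 1386 cells among the 5759 barcodes of the library labelled Tbx1neo2/neo2 and 2391 among the 12447 barcodes of the Foxn11089/1089 library, 3777 in both. The whole series has 24616 barcodes.

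Thymic mesenchyme surrounds and enters the thymic lobes as a capsule and as the coat of the vessels, and much of it derives from the neural crest. It lays down the collagens, elastic fibres and proteoglycans of the organ and sends growth factors such as Fgf7, Fgf10, Igf1 and retinoic acid to the epithelium. Tbx1 is a transcription factor of the pharyngeal apparatus, from which the thymus and parathyroids form, while Foxn1 is the transcription factor that thymic epithelial cells need to differentiate.

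All 3 libraries were made from thymic lobes of C57BL/6 embryos at gestational day 13 to 13.5, dissociated with trypsin and run as droplet single-cell RNA sequencing, 1 library per genotype. In Tbx1neo2/neo2 embryos both copies of Tbx1 carry a neomycin cassette in an intron, in every cell of the embryo and not in the mesenchyme alone, as a model of DiGeorge syndrome. In Foxn11089/1089 embryos both copies of Foxn1 carry a small deletion in the coding sequence, and Foxn1 acts in the epithelium. The wild type (WT) library is the control, with 945 mesenchymal cells. It enters no log2 ratio given below, but a count of genes by the nearer control level uses it. The number of embryos pooled per library is not given in the sources used here.

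With 1 library on each side there was no replicate, so no test was run. A difference between genotypes, embryos, dissections and libraries cannot be told apart. Each gene's UMIs were added up across the mesenchymal cells and are given as counts per 1000000 UMIs of those cells (CPM), in the order Tbx1neo2/neo2, Foxn11089/1089, control. Ranges in brackets are exact 95% intervals, which cover counting error only, and a lone number in brackets after CPM values is the log2 ratio of the library labelled Tbx1neo2/neo2 over the Foxn11089/1089 library. The mesenchymal cells held 37765018, 35731909 and 9636695 UMIs. The median mesenchymal cell had 25405.5 UMIs in the library labelled Tbx1neo2/neo2, 13769 in the Foxn11089/1089 library and 9601 in the control, so shares of cells with a UMI were compared on a random draw of 2000 UMIs per cell, called thinning here. Of the barcodes, 28 occurred in both compared libraries, with 1 of them mesenchymal in both.

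The targeted genes were counted first. Tbx1 had 199, 137 and 53 UMIs in mesenchymal cells, or 5.27 (4.56 to 6.05), 3.83 (3.22 to 4.53) and 5.50 (4.12 to 7.19) CPM. Over all cells within the quality limits it stood at 5.04, 6.37 and 1.47 CPM, and by this count the library labelled Tbx1neo2/neo2 did not have less Tbx1 than the control. The authors give Tbx1 in this mouse model as well under normal levels, citing earlier work. They also state that the embryonic thymus does not express Tbx1. These UMIs do not show such a drop, and in this tissue they cannot test the level given for the model. The reason was not tested, and the library is named by its label throughout. Foxn1 had 29, 57 and 8 UMIs in mesenchymal cells, or 0.768, 1.60 and 0.830 CPM, against 36.9, 90.8 and 40.3 CPM over all cells. Cells called epithelial by Epcam numbered 752, 3569 and 2024 among the 3579, 7824 and 4962 cells within the quality limits. The part of this mix in the all-cell levels of both genes was not tested.

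The mesenchymal cells made up 38.7% (37.1 to 40.3%), 30.6% (29.5 to 31.6%) and 19.04% (18.0 to 20.2%) of the cells within the quality limits. These shares use all UMIs, and their order follows the median depth of the libraries. As a description only, since they chose the cells, Pdgfra stood at 275, 289 and 256 CPM and Postn, a matrix protein, at 526, 410 and 544 CPM. The transcription factor Prrx1 stood at 258, 445 and 197 CPM and Tcf21, another, at 92.9, 164 and 270 CPM. Among genes the gate did not use, the mesenchymal matrix genes Col3a1 and Dcn stood at 2731, 2471 and 2272 CPM and at 845, 897 and 716 CPM, while the 7 hematopoietic markers on a list summed to 6.33, 11.1 and 26.4 CPM. Within 500 UMIs above the depth limit lay 2 cells of the library labelled Tbx1neo2/neo2 and 1 of the Foxn11089/1089 library, and within 500 below it 5 and 4. With exactly 1 Pdgfra UMI, 179 and 426 cells were just inside the gate, and 388 and 324 cells that met every other condition had 0. When the gate was read from the thinned counts it kept 504 of 3579, 973 of 7824 and 361 of 4962 cells within the quality limits.

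Of 13977 genes with at least 30 UMIs over both libraries, 1334 (9.54%) were at least 2-fold higher in the library labelled Tbx1neo2/neo2 and 287 (2.05%) at least 2-fold lower. These shares are the background against which each gene list below is read, and the genes of the gate and mitochondrial and hemoglobin genes were left out of them. The median log2 ratio of all genes was 0.15, so the whole distribution stood slightly above 0. Centring on that median gave 1096 genes higher and 391 lower. At least 4-fold, 426 genes were higher and 60 lower, and at least 8-fold 179 and 23. Of the genes 2-fold higher that had at least 10 control UMIs, 506 of 669 had a control level nearer to the Foxn11089/1089 library than to the library labelled Tbx1neo2/neo2, and of those 2-fold lower 123 of 195. The same was not counted over all genes, so these counts have no background share to be read against. Genes with under 10 control UMIs were left out of them. The plot of all genes shows the longer upper arm.

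**Figure D1:**
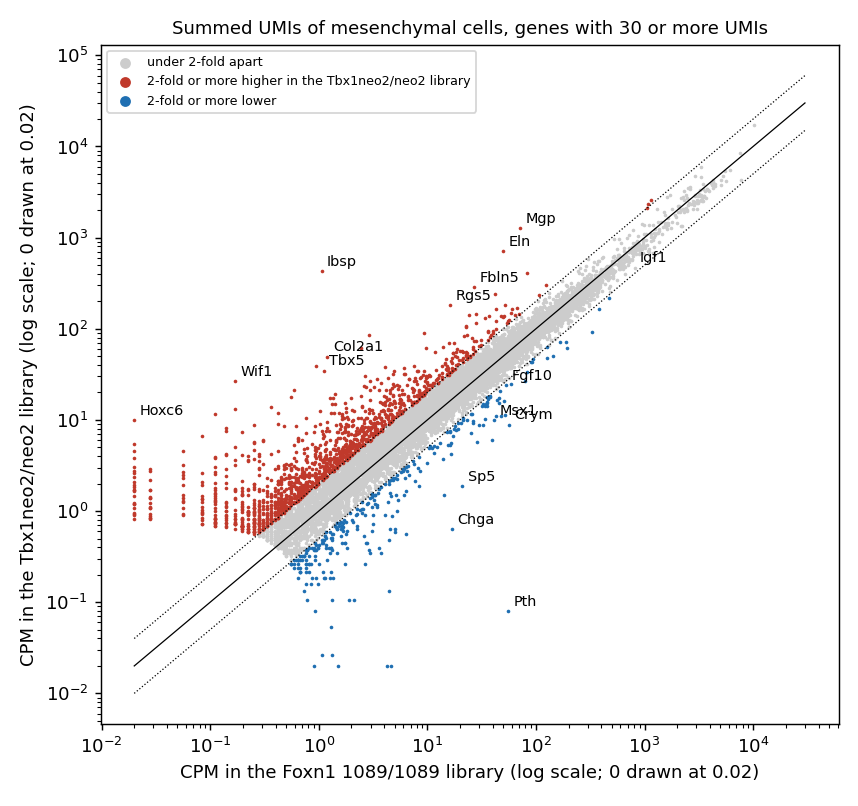
Each point is a gene with at least 30 UMIs over the mesenchymal cells of both libraries, with CPM of the Foxn11089/1089 library on the horizontal and of the library labelled Tbx1neo2/neo2 on the vertical axis (both log scales), an unbroken line of equal values and dotted lines 2-fold from it. The 1334 genes at least 2-fold higher (red) outnumber the 287 at least 2-fold lower (blue); Ibsp, Mgp and Eln lie far above the line and Sp5, Chga and Pth far below it.

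Genes of elastic fibres stood higher in the library labelled Tbx1neo2/neo2: 8 of 20 were at least 2-fold higher and 0 at least 2-fold lower, with a median log2 ratio of 0.88. Eln (ENSMUSG00000029675; GRCm38 chromosome 5, 134702593 to 134747323), which encodes elastin, had 26724, 1793 and 516 UMIs, or 708 (699 to 716), 50.2 (47.9 to 52.6) and 53.5 (49.0 to 58.4) CPM. It was 14.1-fold higher than in the Foxn11089/1089 library, a log2 ratio of 3.82 (3.75 to 3.89), and the control lay beside the Foxn11089/1089 library. After thinning, 35.1% of the cells of the library labelled Tbx1neo2/neo2 had an Eln UMI (32.6 to 37.7%) against 8.95% (7.84 to 10.2%), where unthinned shares were 89.6% and 40.5%. Hematopoietic cells, which should lack elastin, had it in 1.09% and 0% of cells after thinning, at median depths of 49198 and 22949 UMIs. Eln also stood higher in the other cell classes of the library labelled Tbx1neo2/neo2. It stood at 30.2 against 0.950 CPM in hematopoietic cells (4.99) and 3893 against 86.2 CPM in the 83 and 67 endothelial cells (5.50). In epithelial cells it stood at 26.003 against 7.71 CPM (1.75). Whether those classes expressed Eln or held RNA of other cells was not tested.

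Mgp (ENSMUSG00000030218; GRCm38 chromosome 6, 136872435 to 136875823), matrix Gla protein, a calcification inhibitor bound to elastic and cartilage matrix, had 47711, 2543 and 1114 UMIs, or 1263, 71.2 and 116 CPM. It was 17.8-fold higher in the library labelled Tbx1neo2/neo2, a log2 ratio of 4.15 (4.09 to 4.21). It was seen in 41.6% of thinned cells against 8.57%, with 1.64% and 0.73% of hematopoietic cells. Mgp also stood higher in hematopoietic cells, at 26.1 against 3.26 CPM, and in endothelial cells, at 1722 against 96.3 CPM (4.16). In epithelial cells it was lower, at 176 against 332 CPM (-0.91), and the 332 CPM lay above the 71.2 CPM of mesenchymal cells in the same library. Whether those classes expressed Mgp or held RNA of other cells was not tested. Fbln5, a fibulin needed to assemble elastic fibres, stood at 286, 26.9 and 21.0 CPM (log2 ratio 3.41). The lysyl oxidases Lox and Loxl1, which crosslink elastin and collagen, had log2 ratios of 1.91 and 1.34, and Fbln2, Ltbp3 and Ltbp4 of 1.82, 1.61 and 1.46. The microfibril genes did not share this: Fbn1 stood at 0.68, Mfap2 at -0.06 and Fbn2, the fetal fibrillin, lowest of the list at -0.47 (-0.50 to -0.44), with 457, 633 and 475 CPM.

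Collagens followed in part. Of 34 collagen genes, 16 (47.1%) were at least 2-fold higher, 0 at least 2-fold lower, and the median log2 ratio was 0.89. Col1a1 and Col1a2, the chains of the main fibrillar collagen, had log2 ratios of 1.13 and 1.02. Col1a1 stood at 2339, 1069 and 2232 CPM, so that for Col1a1 the control lay beside the library labelled Tbx1neo2/neo2. Col1a2 stood at 2128, 1050 and 910 CPM, so that for Col1a2 the control lay beside the other mutant library and below both mutants. Neither was 2-fold apart once the cell sets described below were left out, at 0.98 and 0.75. Col3a1, the fibrillar partner of soft tissues, stood at 2731, 2471 and 2272 CPM, a log2 ratio of 0.14. Col14a1, which sits on the surface of collagen fibrils, was at 38.2, 4.09 and 6.85 CPM (3.23). Col5a3 was the lowest of the list among genes with at least 300 UMIs, at -0.09 (-0.41 to 0.23). Of 29 genes that process and crosslink collagen, 11 were at least 2-fold higher and 0 lower (median 0.64). Among those with at least 300 UMIs they ran from Pcolce2, an enhancer of procollagen cleavage, at 3.58 (3.10 to 4.11) to the chaperone Ppib at -0.33. Pcolce2 fell under 2-fold with the gate read from thinned counts (0.89) and without the cell sets (0.84). The 5% of cells with most Pcolce2 held 87.8% of its UMIs, and epithelial cells had 70.5 and 51.2 CPM of it, against 12.4 and 1.04 CPM in mesenchymal cells.

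Proteoglycans and matricellular proteins, which tune the matrix and its signals, had 18 of 38 genes at least 2-fold higher and 2 at least 2-fold lower, with a median of 0.86. Thbs2, a thrombospondin, was the highest with at least 300 UMIs, at 30.05, 2.66 and 3.84 CPM, a log2 ratio of 3.50 (3.20 to 3.82); 5.34% of thinned cells had it against 0.46%. Aspn, Ctgf, Tnc, Cyr61 and Ogn had log2 ratios of 3.03, 2.85, 2.23, 1.94 and 1.88. Dcn, the abundant proteoglycan decorin, did not share this, with 845, 897 and 716 CPM (-0.09). Sparcl1, an anti-adhesive matricellular protein, was lower, at 61.2, 193 and 139 CPM, a log2 ratio of -1.66 (-1.73 to -1.59). It was seen in 11.5% of thinned cells against 27.3%. The other lower gene was Spp1, with 1.51, 5.18 and 1.14 CPM.

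Genes of pericytes and smooth muscle, the contractile cells around vessels, had the highest median among the lists of mesenchymal genes, at 1.23, with 13 of 24 (54.2%) at least 2-fold higher and 0 at least 2-fold lower. Rgs5, a pericyte marker that damps G protein signals, had 6833, 579 and 143 UMIs, or 181, 16.2 and 14.8 CPM, a log2 ratio of 3.48 (3.36 to 3.61). Acta2 and Tagln, smooth muscle actin and an actin-bundling protein, stood at 409, 83.2 and 93.2 CPM and at 242, 42.1 and 46.8 CPM. Myocd, the coactivator that drives smooth muscle genes, was at 2.70, 0.112 and 0.208 CPM, and Heyl and Notch3, of the Notch signal that vessel-wall cells use, had log2 ratios of 2.81 and 1.38. Pdgfrb, the receptor through which pericytes are recruited, was at 115, 54.3 and 76.7 CPM (1.08). Tropomyosin Tpm1, which most cells use, was lowest, at -0.40 (-0.42 to -0.38).

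Cells carrying several of these genes were also a larger share. Those with at least 3 of Rgs5, Acta2, Tagln, Actg2, Myl9 and Tpm2 after thinning were 166 of 1386 (11.98%, 10.3 to 13.8%) in the library labelled Tbx1neo2/neo2, 91 of 2391 (3.81%, 3.08 to 4.65%) in the Foxn11089/1089 library and 31 of 945 (3.28%) in the control. Without them, the median of the list was 0.33, the log2 ratio of Rgs5 was 2.26 and that of Eln 2.51. Rgs5 and Eln were thus still more than 2-fold apart among the cells this rule did not call, which can include pericytes missed after thinning. The gate itself asked for Pdgfra among all UMIs, and the libraries differ in depth. The authors describe pericyte-like cells here as low or negative for Pdgfra. The part of depth in these shares was not tested.

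The largest ratio of all came from very few cells. Ibsp (ENSMUSG00000029306; GRCm38 chromosome 5, 104299171 to 104311469), bone sialoprotein of mineralized matrix, had 16185, 38 and 0 UMIs, or 429, 1.06 and 0 CPM, where 0 of the control UMIs allows up to 0.311 CPM. It was 403-fold higher in the library labelled Tbx1neo2/neo2, a log2 ratio of 8.65 (8.20 to 9.15), yet 1.15% of its thinned cells had an Ibsp UMI (0.661 to 1.87%), against 0.125% (0.0259 to 0.366%). The most in a cell was 2863 UMIs. Ifitm5, a membrane protein of osteoblasts, was 41.5-fold higher, with 1492, 34 and 13 UMIs, and was seen in 1.15% of thinned cells.

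Cells with at least 2 of Ibsp, Ifitm5 and Sp7, the osteoblast transcription factor, were counted as a set, which was chosen after the values had been seen. There were 28 in the library labelled Tbx1neo2/neo2 (2.02%, 1.35 to 2.91%), 3 in the Foxn11089/1089 library and 0 in the control, and after thinning 14 (1.01%, 0.553 to 1.69%), 0 and 0. The 28 cells held 99.8% of the Ibsp UMIs, 98.1% of the Ifitm5 UMIs and 19.03% of the Col1a2 UMIs of their class. Without the set, Ibsp had a log2 ratio of -0.22 and Ifitm5 of -0.19, a fall that follows from defining the set by these genes. Alpl, the phosphatase of mineralizing cells, and Sgms2, a sphingomyelin synthase, had log2 ratios of 3.68 (3.26 to 4.13) and 3.78 (3.37 to 4.22), and the 5% of cells with most of each held 96.2% and 95.7% of its UMIs.

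Cartilage genes were also carried by few cells. Of 6 with at least 30 UMIs, 4 were at least 2-fold higher, and their summed level was 341, 117 and 70.3 CPM. Col2a1, the main collagen of cartilage, had 1860, 43 and 5 UMIs, or 49.3, 1.20 and 0.519 CPM, a log2 ratio of 5.36 (4.92 to 5.83). Col9a3, which coats those fibrils, had 2325, 88 and 31 UMIs, a log2 ratio of 4.64 (4.34 to 4.97). After thinning, 72 cells of the library labelled Tbx1neo2/neo2 had at least 3 of the cartilage genes (5.19%, 4.09 to 6.50%), against 3 (0.125%) and 1 (0.106%). Col9a1 and Col9a2 were also abundant in the other libraries, at 53.1 and 43.5 CPM in the Foxn11089/1089 library, and had log2 ratios of 0.91 and 0.88.

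Several transcription factors that pattern mesenchyme by its place in the body were also higher. Tbx5 (ENSMUSG00000018263; GRCm38 chromosome 5, 119832668 to 119885219), a T-box factor of the heart, forelimb and lung bud, had 1311, 40 and 11 UMIs, or 34.7, 1.12 and 1.14 CPM, a log2 ratio of 4.95 (4.50 to 5.45). Foxf1 (ENSMUSG00000042812; GRCm38 chromosome 8, 121084386 to 121088144), which gut and airway mesenchyme needs, had 661, 45 and 12 UMIs, a log2 ratio of 3.80 (3.36 to 4.27). Wif1, a secreted Wnt inhibitor, had 998, 6 and 4 UMIs (7.30, 6.17 to 8.75). All 3 were low in the Foxn11089/1089 and control libraries. The secreted peptide gene 1500015O10Rik (3195, 103 and 40 UMIs) and Adamtsl3, a matrix protein (434, 4 and 8 UMIs), had log2 ratios of 4.88 and 6.68.

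Cells with at least 2 of Tbx5, Foxf1, Hoxa5, Wif1 and Isl1, a set also chosen after the values had been seen, made up 442 of 1386 cells of the library labelled Tbx1neo2/neo2 (31.9%, 29.4 to 34.4%). The Foxn11089/1089 library had 24 (1.004%, 0.644 to 1.49%) and the control 5 (0.529%). After thinning they were 83 (5.99%), 2 (0.0836%) and 2 (0.212%), in the same order. In the library labelled Tbx1neo2/neo2 the set held 65.3% of the Mgp UMIs, at 2573 CPM inside and 646 CPM outside it. Elastin went the other way, with Eln at 388 CPM inside and 858 CPM outside, and so did Rgs5, at 44.7 and 245 CPM. Beside these cells, the epithelial cells of the same library had the thyroid and lung factor Nkx2-1 at 83.3 CPM, against 0.945 and 0.795 CPM in the others; its part in the mesenchymal result was not tested.

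Hox genes, which give the head-to-tail level of a tissue, divided by their position in the cluster. Of 17 with at least 30 UMIs, 9 (52.9%) were at least 2-fold higher and 0 at least 2-fold lower, with a median of 1.0. The higher genes included those of the middle and posterior groups: Hoxa5 at 88.8, 9.38 and 7.16 CPM (3.24), Hoxc6 at 9.96, 0 and 0 CPM, and Hoxa7, Hoxa9 and Hoxd8 at 2.67, 2.60 and 4.63 CPM against 0.0560, 0 and 0.252 CPM. Hoxc6 (ENSMUSG00000001661; GRCm38 chromosome 15, 102998257 to 103011881) had 376 UMIs against 0, at least 119-fold higher with 3 counts over the library as the floor. Several anterior genes, of the level of the pharyngeal arches, were within 2-fold and below 0, with Hoxa2 at -0.36, Hoxb2 at -0.21, Hoxa3 at -0.45 and Hoxd3 lowest at -0.68 (-0.97 to -0.40).

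Cells with at least 2 of Hoxc6, Tbx15 and Sim2, chosen after the values had been seen, numbered 121 in the library labelled Tbx1neo2/neo2 (8.73%, 7.30 to 10.3%) and 0 of 2391 and 0 of 945 in the others, which allows up to 0.125% and 0.317%. After thinning they were 6 (0.433%, 0.159 to 0.940%), 0 and 0, far fewer than over all UMIs. Tbx15, a T-box factor of trunk dermis and skeleton, had 308, 5 and 0 UMIs, a log2 ratio of 5.87 (4.63 to 7.498), and Sim2, a bHLH-PAS transcription factor, had 498, 6 and 1 (6.30, 5.16 to 7.75). The 121 cells held 74.5% of the Hoxc6 and 72.4% of the Tbx15 UMIs, but 1.28% of the Mgp and 2.65% of the Eln UMIs.

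**Figure D2:**
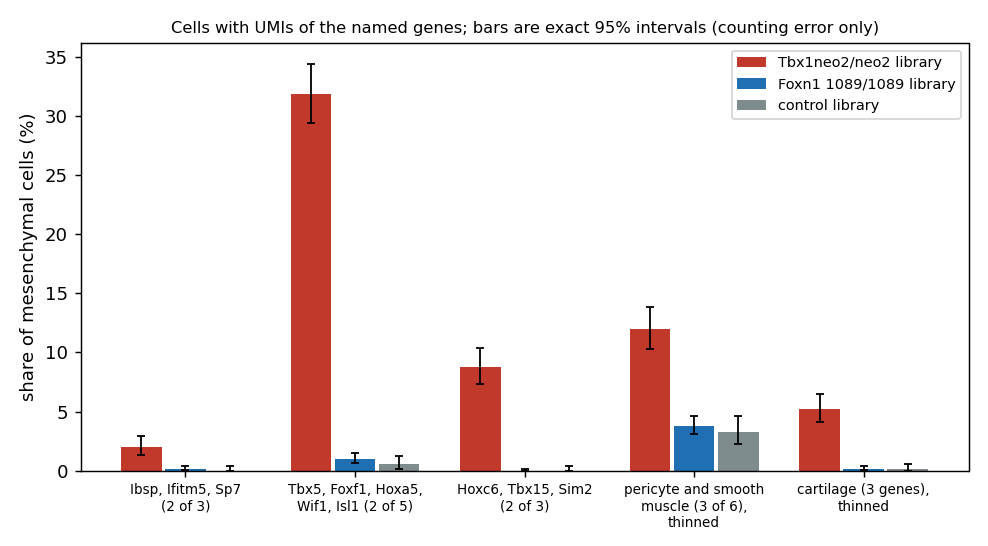
Bars are shares of mesenchymal cells (percent) with UMIs of the named genes in the library labelled Tbx1neo2/neo2, the Foxn11089/1089 library and the control; error bars are exact 95% intervals and cover counting error only, and the 3 sets at the left use all UMIs while the 2 at the right use thinned cells. Cells with at least 2 of Tbx5, Foxf1, Hoxa5, Wif1 and Isl1 make up 31.9% of the first library and 1.004% and 0.529% of the others, and 5.99%, 0.0836% and 0.212% after thinning; the other sets at the left fall from 2.02% to 1.01% and from 8.73% to 0.433% of the library labelled Tbx1neo2/neo2 when thinned.

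To see what remained among the other cells, the 3 sets and the pericyte, smooth muscle and cartilage cells were left out together, which kept 701 and 2270 cells. There, 793 of 13314 genes (5.96%) were at least 2-fold higher in the library labelled Tbx1neo2/neo2 and 208 (1.56%) at least 2-fold lower. Of the 12 highest genes, 7 were still at least 2-fold higher (Alpl, Foxf1, Eln, Mgp, Col9a3, 1500015O10Rik and Tbx5), and of the 12 lowest all 12 at least 2-fold lower. The elastic fibre list still had 8 of 20 genes at least 2-fold higher, with log2 ratios of 2.73 for Fbln5, 2.49 for Eln and 2.34 for Mgp. Proteoglycans had a median of 0.88, with 15 of 37 higher and Thbs2 at 2.93. Other lists had fewer genes 2-fold higher than over all cells. Some of their genes define the cells left out, such as Hoxa5, Hoxc6, Tbx5 and Wif1, and their own fall follows from that choice. The 3 sets were called on all UMIs, and the library labelled Tbx1neo2/neo2 is the deeper. Collagens had 10 of 33, collagen processing genes 6 of 26 and Hox genes 4 of 15, where they had 16, 11 and 9. Transcription factors had 18 of 84, Wnt genes 10 of 45 and BMP and TGF-beta genes 7 of 37, where they had 33, 18 and 12. The bone and cartilage genes Ibsp, Ifitm5 and Col2a1, which also define cells left out, stood at 0.18, -0.12 and 0.46.

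**Figure D3:**
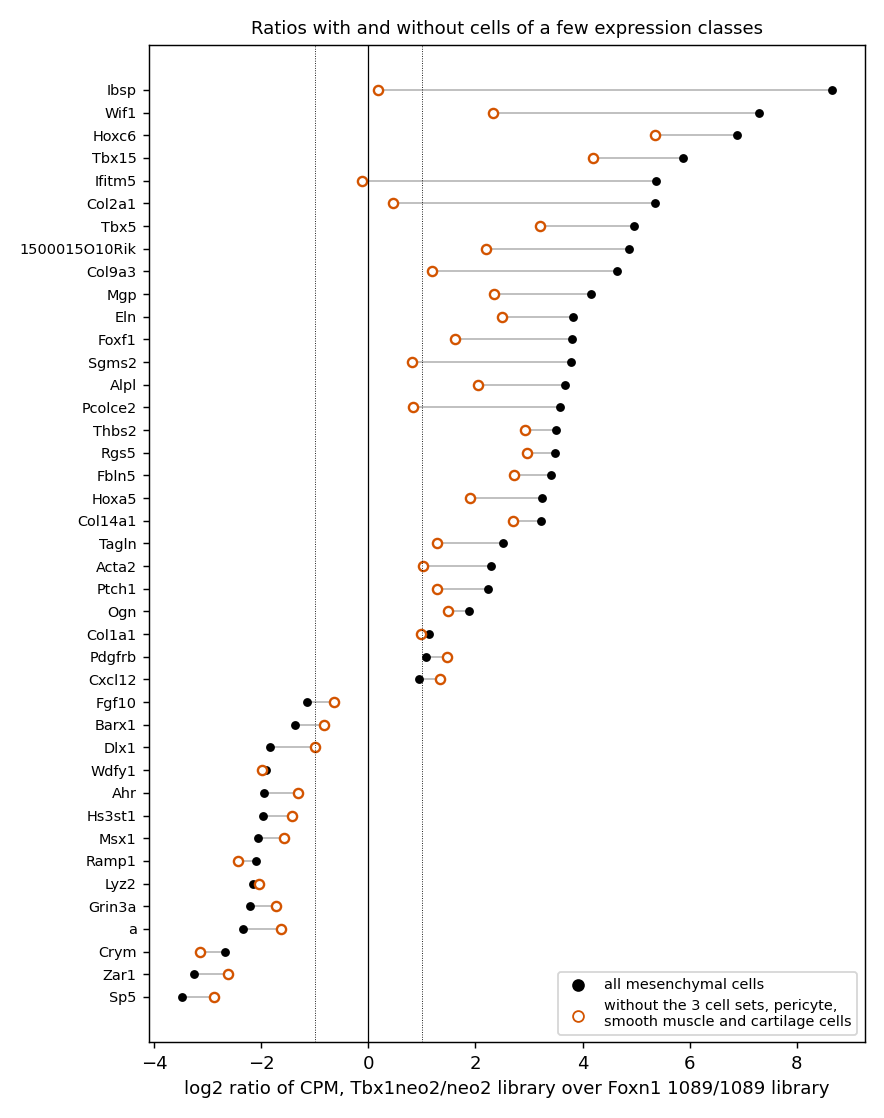
Log2 ratios of CPM, library labelled Tbx1neo2/neo2 over Foxn11089/1089 library, over all mesenchymal cells (black) and without the 3 cell sets and the pericyte, smooth muscle and cartilage cells (open); dotted lines mark 2-fold. Ibsp moves from 8.65 to 0.18 and Col2a1 from 5.36 to 0.46, while Fbln5 moves from 3.41 to 2.73 and Sp5 from -3.48 to -2.89. Ibsp and Col2a1 help to define the cells left out.

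Among the 12 genes with the lowest ratios, those higher in the Foxn11089/1089 library, the control lay between the mutants except for Crym, Lyz2 and Wdfy1. Sp5 (ENSMUSG00000075304; GRCm38 chromosome 2, 70474923 to 70477729), a zinc finger factor that Wnt signals switch on, had 71, 748 and 67 UMIs, or 1.88 (1.47 to 2.37), 20.9 (19.5 to 22.5) and 6.95 (5.39 to 8.83) CPM. It was 11.1-fold lower in the library labelled Tbx1neo2/neo2, a log2 ratio of -3.48 (-3.85 to -3.12), and was seen in 0.505% of thinned cells against 3.39%, with 0% of hematopoietic cells in both libraries. The 250 bases before its start are shown because it is the lowest gene with at least 30 UMIs in each library and a known target of the TCF/LEF factors, which Wnt signals act through. The motif CTTTGAT, searched on both strands, is in capitals and begins 104 bases before the start of the RefSeq transcript (GRCm38.p6, plus strand, chr2:70474673-70474922).

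Sp5: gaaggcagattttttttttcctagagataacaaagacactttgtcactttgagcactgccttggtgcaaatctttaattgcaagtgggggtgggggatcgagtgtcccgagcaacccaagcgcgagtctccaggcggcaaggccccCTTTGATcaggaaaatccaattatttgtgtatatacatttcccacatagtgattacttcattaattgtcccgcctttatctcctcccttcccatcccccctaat

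Of all 32851 promoters of the same length, 3.21% hold this motif, and of 45 promoters of the Wnt list 2 do (Wnt11 and Wnt5b). A match is a description of letters and not of a bound site.

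Zar1, an RNA-binding protein best known from the oocyte, stood at 1.48, 14.1 and 10.8 CPM (log2 ratio -3.25, -3.67 to -2.85). Crym, which binds thyroid hormone, was at 8.84, 56.5 and 7.16 CPM (-2.68, -2.85 to -2.51), so that for this gene the control lay beside the library labelled Tbx1neo2/neo2. For the agouti gene a, whose product antagonizes melanocortin receptors, the values were 5.69, 28.9 and 28.7 CPM (-2.34). Grin3a, a glutamate receptor subunit, was at 11.2, 52.0 and 18.7 CPM (-2.21), and 10.5% of thinned Foxn11089/1089 cells had it against 2.38%. Ramp1, a partner of the calcitonin gene-related peptide receptor, had 11.1, 47.6 and 29.6 CPM (-2.10), although 10.9% and 15.0% of thinned hematopoietic cells had it too and its log2 ratio was -0.48 without cycling cells. Hs3st1, a heparan sulfate sulfotransferase, Ahr, the aryl hydrocarbon receptor, and the endosomal adaptor Wdfy1 had log2 ratios of -1.96, -1.95 and -1.90.

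Lyz2, lysozyme of macrophages, was also among the 12 lowest, at 1.88, 8.31 and 1.25 CPM. It was seen in 0.289% and 0.418% of thinned mesenchymal cells and in 14.8% and 14.2% of hematopoietic cells, and 203 of its 297 UMIs in the Foxn11089/1089 library lay in 1 cell, on which the ratio thus rests. Without cycling cells it was at -0.49.

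**Figure D4:**
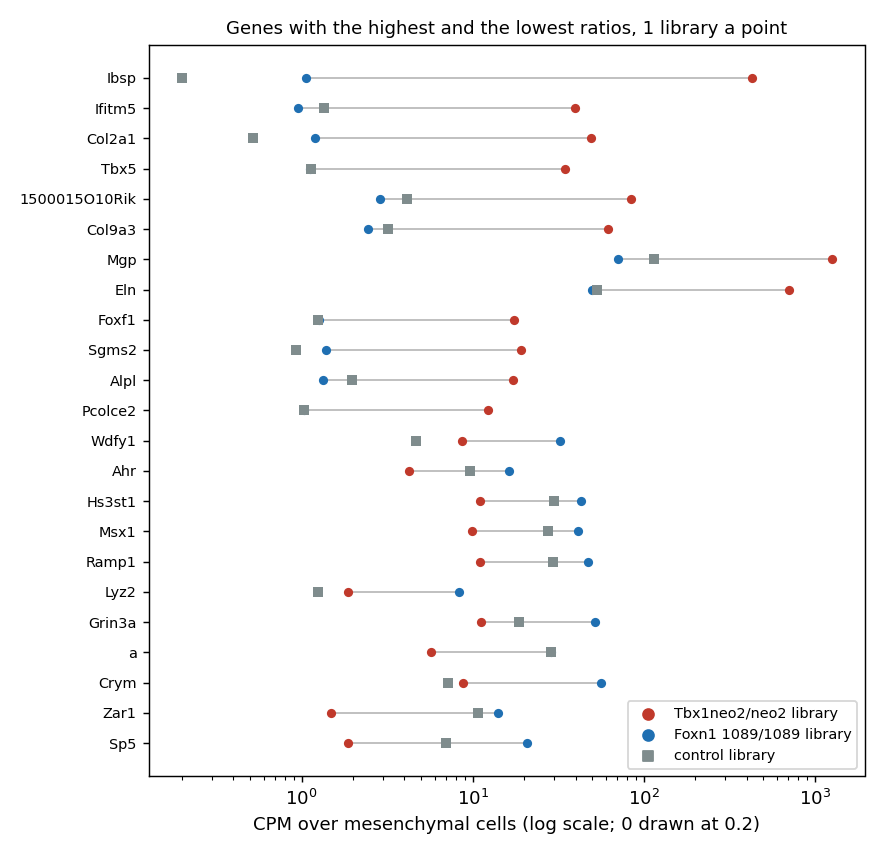
CPM over mesenchymal cells (log scale) of genes with the highest and the lowest ratios, 1 library a point, with the control as squares. For the higher genes the control squares lie at or below a few CPM with the Foxn11089/1089 library, apart from Mgp and Eln, whose controls are at 116 and 53.5 CPM, while for the lower genes other than Crym, Lyz2 and Wdfy1 they lie between the mutants; the control level of 0 for Ibsp is drawn at the left edge.

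Among 90 mesenchymal transcription factors with at least 30 UMIs, 33 (36.7%) were at least 2-fold higher in the library labelled Tbx1neo2/neo2 and 8 (8.89%) at least 2-fold lower, with a median of 0.42. The lower ones included homeobox factors of the pharyngeal arch mesenchyme. Msx1 (ENSMUSG00000048450; GRCm38 chromosome 5, 37820485 to 37824583), which neural crest mesenchyme uses downstream of BMP, had 376, 1478 and 267 UMIs, or 9.96, 41.4 and 27.7 CPM, a log2 ratio of -2.05 (-2.22 to -1.89). It was seen in 1.37% of thinned cells against 6.57%. Dlx1 and Dlx2, which pattern the arches, were at 7.10, 25.2 and 11.9 CPM and at 9.29, 26.3 and 27.4 CPM, log2 ratios of -1.83 and -1.50. Barx1 was at 72.3, 187 and 128 CPM (-1.37), Mab21l2 at -1.20, Lhx8 at -1.10, Tfap2b at -1.03 and Tbx3 at -1.0. Among the other cells, after the sets were left out, Msx1 stood at -1.57, Dlx1 at -1.002, Barx1 at -0.83 and Dlx2 at -0.72.

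Growth factors and cytokines of thymic mesenchyme went both ways, with 10 of 30 at least 2-fold higher, 2 at least 2-fold lower and a median of 0.39. Fgf10, which makes thymic epithelium proliferate, was the lowest of them, with 906, 1886 and 309 UMIs, or 23.99, 52.8 and 32.1 CPM, a log2 ratio of -1.14 (-1.25 to -1.02). It was under 2-fold apart with the gate read from thinned counts (-0.83) and without the cell sets (-0.65). Fgf7, which acts on the same receptor, was at 11.5, 6.61 and 7.68 CPM (0.80). Igf1 was at 469, 811 and 749 CPM (-0.79), Hgf at -0.76, the midkine Mdk at -0.70 and Nrg1 at -1.10. Il7, the cytokine of thymocyte precursors, was at 1.88, 3.44 and 2.49 CPM. Cxcl12, which draws progenitors to the thymus, was higher, at 582, 300 and 368 CPM (0.96), as was Gas6, a ligand of the Axl receptor family, at 15.4, 1.74 and 1.45 CPM (3.15, 2.77 to 3.55). Hematopoietic cells had Gas6 in 7.65% and 4.74% of thinned cells, above the mesenchymal 3.54% and 0.418%.

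Of 14 receptors and feedback genes of FGF and PDGF signals, 4 were at least 2-fold higher and 0 at least 2-fold lower. Fgfr2, an FGF receptor, was at 23.1, 2.74 and 3.63 CPM (3.07, 2.77 to 3.39), with a log2 ratio of 1.05 without the cell sets. Fgfr3 and Fgfr1 had log2 ratios of 2.07 and 0.79. Spry2, a feedback inhibitor induced by FGF, was lowest, at 78.6, 151 and 489 CPM, a log2 ratio of -0.94 (-1.01 to -0.88), with both mutants below the control. Of 16 retinoic acid genes, 3 were at least 2-fold higher and 0 lower. Aldh1a2, the enzyme that makes retinoic acid in mesenchyme, was lowest of the 16, at 66.5, 132 and 89.9 CPM, a log2 ratio of -0.98 (-1.05 to -0.91). Rarb, a retinoic acid receptor and target gene, stood at -0.61. Dhrs3, which limits retinoic acid, was at 0.65.

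Of 51 Wnt genes, 18 (35.3%) were at least 2-fold higher and 3 (5.88%) at least 2-fold lower, with a median of 0.45. Ligands divided: Wnt4 was at 7.86, 19.2 and 6.43 CPM (-1.29, -1.49 to -1.09), but -0.76 without cycling cells and -0.85 without the cell sets, and Wnt2 was at -1.25, while Wnt11 was at 1.58. The secreted inhibitors and modulators Wif1, Frzb, Dkk3, Rspo1 and Rspo2 were higher, with Frzb at 27.8, 6.77 and 2.70 CPM and Rspo1 and Rspo2 at 2.18 and 1.77. Sfrp5, an inhibitor too, was lower (-1.46). The feedback target Nkd1 stood at -0.95 and Lef1 at -0.47, at 6.30, 8.70 and 1.76 CPM. Without the cell sets Lef1 was at -1.61, with 54 against 302 UMIs, and Notum, which inactivates Wnt ligands, at -4.43, with 3 against 119 UMIs. Over all mesenchymal cells Notum stood the other way, at 1.14, with 288 against 124 UMIs.

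Of 37 BMP and TGF-beta genes, 12 (32.4%) were at least 2-fold higher and 3 (8.11%) at least 2-fold lower, with a median of 0.24. Antagonists were among the higher genes, with Fstl3 at 3.13 (2.70 to 3.58), Nog at 1.62 and Fst at 1.49, although the antagonist Chrdl1 was lower, at -1.11. Also higher were the ligands Bmp3, Bmp5, Gdf5 and Tgfb3, at 3.04, 2.03, 2.76 and 2.12. Bmp4, a ligand of the early thymus, was at 41.3, 80.3 and 55.2 CPM (-0.96). The direct targets Id1 and Id2 were at 218, 475 and 159 CPM (-1.12) and at -0.57, with the control below both mutants. Msx2, unlike Msx1, was at 2.30, and at -0.04 once the cell sets were left out.

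Hedgehog genes had 5 of 12 at least 2-fold higher, 0 at least 2-fold lower and a median of 0.90. Targets that report the signal were higher, with Ptch1, the receptor, at 21.3, 4.56 and 3.11 CPM (2.23), Gli1 at 8.77, 2.07 and 1.14 CPM (2.08), and Hhip at 3.89, 0.112 and 0 CPM. The transducers Smo, Gli2 and Gli3 stood at 0.56, 0.67 and 0.43, and the coreceptor Gas1, lowest of the list, at -0.50 (-0.52 to -0.47). Without the cell sets Ptch1 was at 1.27 and Gli1 at 1.49.

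Guidance and vessel factors had 7 of 31 genes at least 2-fold higher and 0 lower (median 0.34). Among those with at least 300 UMIs they ran from Nrp2, a semaphorin and VEGF coreceptor, at 63.0, 13.9 and 11.6 CPM (2.18, 2.04 to 2.32) to Vegfc, the lymphatic growth factor, at -0.77. Integrins and adhesion genes had 9 of 29 higher and 0 lower (median 0.58). Itga4 was highest with at least 300 UMIs, at 15.5, 4.09 and 4.98 CPM (1.93), but 37.7% and 37.2% of thinned hematopoietic cells had it, against 1.88% and 0.711% of the mesenchymal cells, and it turned to -0.36 with the gate read from thinned counts. Itga8, a mesenchymal integrin, stood at -0.41.

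The imprinted growth and cell cycle lists held 0 genes 2-fold apart, though most G2/M genes lay below 0. Of 23 imprinted growth genes, 0 were 2-fold apart, from Igf2r at 0.73 to Nnat at -0.92, with a median of 0.13. Of 44 S phase genes, 0 were 2-fold apart (median -0.07; Mcm2 0.57, Dscc1 -0.48). Of 52 G2/M genes 0 were 2-fold apart but 46 lay below 0, with a median of -0.34 and Cks2 lowest at -0.74. Cells with at least 3 G2/M genes after thinning were 58.8% (56.2 to 61.4%), 67.5% (65.6 to 69.4%) and 54.2%, and those with at least 3 S phase genes 61.3%, 64.5% and 53.1%.

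Of 32 genes of dissociation stress, 1 was at least 2-fold higher and 1 at least 2-fold lower (median -0.19). Atf3 was lower, at 8.77, 29.95 and 43.1 CPM (-1.77), and Gadd45g higher, at 19.6, 9.01 and 36.9 CPM (1.12, 0.93 to 1.32). Fos and Jun stood at -0.66 and -0.42. Of 31 hypoxia and glycolysis genes, 5 were at least 2-fold higher and 0 lower (median 0.10). Among those with at least 300 UMIs they ran from Ddit4, an inhibitor of mTORC1, at 1.29 to the glycolytic enzyme Pgk1 at -0.45. The plot of the lists shows this order.

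**Figure D5:**
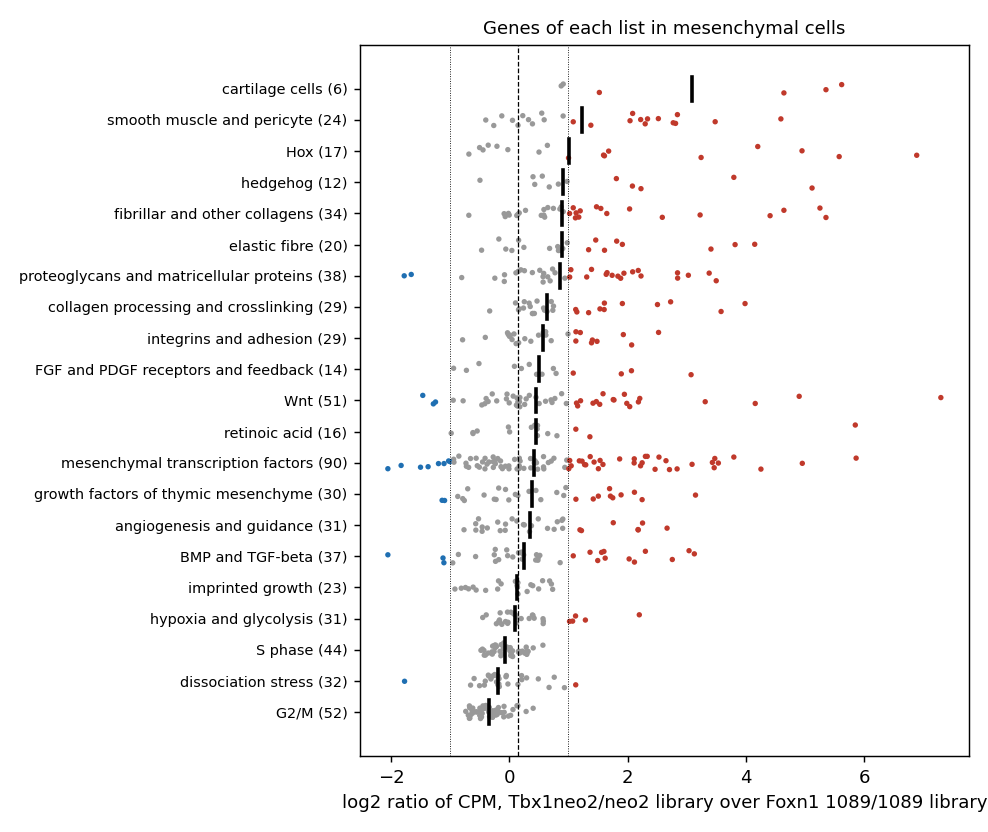
Log2 ratios of CPM over mesenchymal cells, library labelled Tbx1neo2/neo2 over Foxn11089/1089 library, 1 point a gene and 1 row a list (number of genes in brackets), with black bars at the medians, a dashed line at the median of all genes (0.15) and dotted lines at 2-fold. Medians run from -0.34 for G2/M to 1.23 for smooth muscle and pericyte and 3.08 for cartilage genes; red points are at least 2-fold higher and blue points at least 2-fold lower.

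RNA of other cells was present in these classes and differed between the libraries. Pth, the parathyroid hormone gene, had 3, 1993 and 46 UMIs in mesenchymal cells, or 0.0794, 55.8 and 4.77 CPM. In the Foxn11089/1089 library, however, hematopoietic cells had 53.8 CPM of Pth, and 10.9% of them carried it after thinning, against 10.6% of the mesenchymal cells, while its epithelial cells had 4679 CPM. Chga, a granule protein of endocrine cells, followed at 16.9 CPM in mesenchymal and 16.3 CPM in hematopoietic cells, with 3.51% and 4.38% of thinned cells. Both are therefore read as background and not as expression of mesenchymal cells. All 7 hemoglobin genes with enough UMIs were at least 2-fold lower in the library labelled Tbx1neo2/neo2, with a summed level of 291, 1480 and 228 CPM. Hemoglobin was part of the rule that chose the cells, so this is a description only.

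The marker lists of other cells gave the following. Epithelial markers had 1 of 7 at least 2-fold higher (Krt18 at 14.6, 6.10 and 18.2 CPM, 1.26) and 1 lower (Cldn6); Sfn was at -0.99. Endothelial markers had 1 of 5 higher (Tek) and 1 lower (Kdr, -1.04), with a summed level of 32.3, 33.6 and 51.1 CPM, and Emcn at 0.01. Hematopoietic markers had 2 of 5 higher, the T cell genes Cd3g and Lck, and 2 lower, Coro1a and Tyrobp, at 6.33, 11.1 and 26.4 CPM in sum, with 1 of the 7 on the list at 0 in the Foxn11089/1089 library. Skeletal muscle markers had 4 of 6 higher, with a sum of 28.3, 21.7 and 24.2 CPM, of which Tnnt1 (-0.12) was 18.03, 19.5 and 22, and 2 of the 10 on the list were at 0 in the Foxn11089/1089 library. Glia and neuron markers had 4 of 8 higher and 1 lower, with a sum of 186, 388 and 413 CPM. Their part in the ratios of other genes was not tested. Of these, Stmn2, a tubulin-binding protein of neurons, was at 163, 377 and 407 CPM (-1.21, -1.25 to -1.16), seen in 15.2% and 31.1% of thinned cells but 1.09% and 1.46% of hematopoietic cells. It was at -0.76 with the gate read from thinned counts and -0.49 without the cell sets. Of the heart markers 1 of 5 had enough UMIs (Tnnt2, 0.73), and of the red cell markers 2, with Gypc at 0.15.

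RNA of sex-linked genes differed between the libraries. Xist, expressed from the inactive X of females, was at 93.2, 331 and 109 CPM (-1.83), in 6.999%, 26.5% and 18.7% of thinned cells, and the Y-linked Uty at 21.4, 11.6 and 7.26 CPM (0.88). The other Y-linked genes did not share one direction, with Kdm5d at 0.57, Ddx3y at 0.27 and Eif2s3y at -0.26. The part of embryo sex in the other results was not tested.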

How the data were processed

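Droplet single-cell libraries of embryonic thymus, 1 each of WT, Tbx1neo2/neo2 and Foxn11089/1089, were used. Reads had been aligned to mm10 with Cell Ranger 3.0.0 by the authors, who deposited raw UMI counts per gene and cell barcode, without normalization; their Seurat clusters were not used. Groups follow the sample titles. UMIs were summed per library over gated cells and expressed as CPM, and log2 ratios were taken without a pseudocount, with 3 counts in place of 0. No test was run between libraries, because cells from the same library do not replicate a genotype. Ratios carry conditional binomial, shares Clopper-Pearson and sums Poisson intervals (95%), tested on simulated data. Hematopoietic cells for the free RNA level had at least 1 Ptprc UMI and 0 of Pdgfra, Epcam and Cdh5; epithelial cells were taken likewise by Epcam.

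Named genes were the 12 highest and 12 lowest ratios among genes with at least 300 UMIs over both libraries and 30 in each, the 5 highest and 5 lowest with under 30 in a library (2 of the lowest existed), the highest and lowest of each list among genes with at least 300 UMIs, and Tbx1 and Foxn1. Genes of the gate, sex-linked genes and those of mitochondria, hemoglobin and ribosomal proteins could enter only through a list. Other list members in the text were picked as examples after their values were seen. The members, lists and alternatives were chosen with earlier results of these data known. Doublets stayed in, with Scrublet (scanpy 1.11.5) scores used in an alternative. Coordinates are GENCODE M21 and promoters RefSeq, both GRCm38; 35 of 51 Wnt list genes had a promoter. Python 3.11.15, numpy 2.4.6, scipy 1.17.1, pandas 2.3.3 and matplotlib 3.10.9 were used. Alternatives are given in the closing section. Some genes that met these rules are not reported here.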

Additional observations from a re-analysis of the deposited data

Results flagged for a closer look

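Named genes at least 2-fold apart one way in mesenchymal cells and at least 2-fold the other way in epithelial cells (at least 1 Epcam UMI and 0 of Pdgfra, Ptprc and Cdh5) of the same 2 libraries were picked out; with 1 library per genotype the difference between the cell types was not tested. Ibsp had a log2 ratio of 8.65 in mesenchymal and -7.23 in epithelial cells, where it stood at 0.833 CPM in the library labelled Tbx1neo2/neo2 and 125 CPM in the Foxn11089/1089 library. Col9a3 had 4.64 in mesenchymal and -1.04 in epithelial cells, at 5.99 and 12.3 CPM in the latter. Gadd45g had 1.12 and -1.18.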

How the results depend on the processing

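No paired analysis was possible because each genotype has 1 library, and for the same reason no library could be left out. Of 11 other settings, and 4 more chosen after seeing the data, some moved the count of genes at least 2-fold higher in the library labelled Tbx1neo2/neo2 by more than 1.5 times from 1334: it was 782 with the gate read from thinned counts, 864 without cycling cells, 842 with at least 100 UMIs per gene and 793 without the 3 cell sets and the pericyte, smooth muscle and cartilage cells. The 287 lower genes became 145 without cycling cells and 162 with at least 100 UMIs. These settings keep fewer cells or genes. Centring set the median over all genes to 0 by construction and gave 1096 higher and 391 lower genes, 73.7% higher in place of 82.3%. Without likely doublets the counts were 1329 and 277.

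Of 49 named genes at least 2-fold apart, 48 kept their direction under the 10 of the first 11 settings that apply to a gene, and 37 stayed at least 2-fold apart. The exception was Itga4, at -0.36 with the gate read from thinned counts; the cause was not tested. Besides Itga4, Pcolce2 (0.89), Fgf10 (-0.83), Stmn2 (-0.76), Gadd45g (0.84) and Krt18 (0.92) were under 2-fold apart with the gate read from thinned counts, and Lyz2 (-0.49), Ramp1 (-0.48), Wnt4 (-0.76), Ddit4 (0.97) and Foxn1 (-0.75) without cycling cells. The median of the skeletal muscle list became -0.35 without cycling cells and -0.057 without all the cell sets. Without the cells of the bone matrix set, Ibsp was at -0.22 and Ifitm5 at -0.19, and Ifitm5 was at -0.12 without all the cell sets. That set is defined by these genes, so their fall follows from its choice. Of 30 lists, 22 kept the sign of their median under the first 11 settings. Depth limits genes of few UMIs, and shares of cells with a UMI could be compared only after thinning.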
